A study of Mus musculus with 4 samples.

Results

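The interferon-inducible GTPases examined here were 7 mouse genes of 2 related families, the guanylate-binding proteins (GBPs) Gbp2 and Gbp3 and the immunity-related GTPases (IRGs) Iigp1, Ifi47, Irgm1, Irgm2 and Igtp. They were found by gene symbol in the platform annotation of the arrays, and this set of genes was chosen with earlier results of these data known. They carried 9 of the 45037 probe sets compared and made up 7 of the 17097 genes with a probe set of their own, and none of the 9 probe sets was annotated to a further gene. The probe set with the highest mean signal stood for each gene, and the second probe sets of Gbp2 and Iigp1 are given beside it. RNA came from lymph node cells labelled B cells, from Balb/C mice, an inbred strain, aged 6 to 8 weeks and labelled male. The TG group was transgenic for over-expression of miR-146a, a microRNA known to dampen Toll-like receptor and NF-kB signalling, and the WT group was wild type. Each group had 2 mice with 1 Affymetrix array each, 4 in all. B cells were enriched by removing other cells with magnetic beads and then dead cells. Which promoter drives the transgene is not stated in the labels, and the level of miR-146a itself was not analysed here.

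GBPs and IRGs are large cell-autonomous defence proteins that assemble on the vacuoles of intracellular bacteria and parasites and help to break them open. Their genes are switched on chiefly by interferon-gamma through STAT transcription factors and IRF1, and to a lesser extent by type I interferon. Among IRGs, the effector proteins Iigp1 (Irga6) and Ifi47 (Irgd) carry the usual lysine in the nucleotide-binding loop, whereas Irgm1, Irgm2 and Igtp (Irgm3) carry a methionine there and act as regulators that hold the effectors inactive on the cell's own membranes. Lymphocytes express several of them, and loss of Irgm1 in mice is known to impair lymphocyte survival under interferon-gamma.

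Promoter stretches of the members are shown because interferon-inducible genes are known for shared promoter elements. RefSeq promoter windows (GRCm38.p6, 250 bases before to 50 after an annotated start) were matched by symbol for 6 of the 7 genes, in 7 windows. Both strands were searched for GAAANNGAAA, the core of the interferon-stimulated response element (ISRE) bound by interferon regulatory factors, and for TTCNNNGAA, the gamma-activated site (GAS) bound by STAT transcription factors, which reads the same on both strands. In 5 of the 6 genes a window held an ISRE match, as did 3.44% of all 32851 windows. A GAS match was held by 8.3% of all windows. In 2 genes, Igtp and Irgm2, a window held both motifs, as did 0.454% of all windows. Ifi47 had neither set of letters in its window. The stretches run 5′ to 3′ on the strand of the gene, with the ISRE letters in capitals. They lie at chr3:142620592-142620625 (plus strand, Gbp2), chr3:142559987-142560026 (plus, Gbp3), chr11:58199510-58199543 (plus, Igtp), chr11:48871423-48871462 (minus, Irgm1) and chr11:58214901-58214934 (plus, Irgm2).
Gbp2: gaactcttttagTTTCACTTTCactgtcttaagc
Gbp3: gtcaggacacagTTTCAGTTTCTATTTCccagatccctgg
Igtp: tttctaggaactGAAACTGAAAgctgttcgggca
Irgm1: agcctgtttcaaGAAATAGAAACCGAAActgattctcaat
Irgm2: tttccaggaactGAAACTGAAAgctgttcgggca
The stretches of Gbp3 and Irgm1 hold 2 overlapping ISRE matches each. Those of Igtp and Irgm2, which are neighbouring genes on chromosome 11, are nearly the same, and over the whole windows 244 of 265 aligned bases (92.1%) were identical. In both, the GAS letters (ttctaggaa in Igtp, ttccaggaa in Irgm2) lie just before the ISRE match without overlapping it. These matches are a description of the sequence and show no binding.

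The values below are log2 signals, so a difference of 1 is a doubling, and signals of different probe sets were not compared with each other. Transgenic mouse 1 stood apart from the other 3 arrays: its median signal was 4.48, against 4.59 to 4.61, and its upper quartile 6.13, against 6.51 to 6.55. The 2 WT arrays differed from each other by an SD of 0.119 over probe sets, and the 2 TG arrays by 0.319. TG mouse 2 differed from the WT arrays by SDs of 0.278 and 0.282, and so was closer to WT than to TG mouse 1. Xist, the RNA of the inactive X chromosome of females, was at 9.13 and 9.56 on the TG arrays and at 5.96 and 6.19 on the WT arrays, while Eif2s3y, a Y-linked gene, was at 7.80 and 8.00 on the TG arrays and at 8.29 and 8.34 on the WT arrays. The TG arrays thus carried a female-type transcript beside a male one, against the label that all mice were male, and its part in the results was not tested. The 14 measured B cell markers were present on all arrays, with mean signals of 8.82 and 9.01 on the TG arrays and 9.83 and 9.87 on the WT arrays. The 12 measured T cell markers were also present on all of them, with means of 9.86 and 10.03 in TG and 9.54 and 9.60 in WT. The 13 neutrophil markers averaged 6.07 and 6.32 in TG and 4.77 and 4.78 in WT. Without overlap, 14 of 14 B cell markers were lower in TG, and 11 of 12 T cell and 12 of 13 neutrophil markers were higher. Over all 17097 genes 31.4% were lower and 17.7% higher without overlap. The median differences of the monocyte, dendritic cell and natural killer cell markers were 0.24, 0.09 and 0.28. No marker of these lists averaged below the brightest non-specific control probe set. In such bulk samples, fewer cells of a type and less RNA per cell cannot be told apart.

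The first comparison asked whether the GTPases differed between the TG and WT samples. These were labelled B cells but carried T cell markers too, so the values are not those of B cells alone. Iigp1, Irgm1 and Gbp2 were lower on both TG arrays, by more than the 2 WT arrays differed from each other, Gbp2 by under 0.1 on that of TG mouse 2. The 2 TG arrays differed from each other more than the WT arrays did. Their SDs were 0.62 for Iigp1, 0.26 for Irgm1 and 0.40 for Gbp2, against 0.13, 0.013 and 0.005 in WT. Gbp3, Irgm2 and Igtp were low on the array of TG mouse 1 and nearer to WT on that of TG mouse 2, and Ifi47 was slightly higher on both. By limma with Benjamini-Hochberg adjustment over all 45037 probe sets, none of the 7 passed an adjusted p of 0.05, and 2 (Irgm1 and Iigp1) had an unadjusted p under 0.05. Over all probe sets 0.0466% passed. In simulated data the same fit and threshold found 10% of changes of 1 log2 unit and 90% of changes of 2. Not passing therefore does not show that a gene was unchanged. Without overlap between the groups, 4 members were lower and 1 was higher in TG, where 31.4% of all 17097 genes were lower and 17.7% higher without overlap. Among the 12024 genes above a filter on dim signals (4.10), which all 7 members passed, these shares were 37.9% and 15.2%. An exact permutation test of 1 gene over 2 against 2 arrays reaches no two-sided p below 0.333, so single genes were tested only with limma, where probe sets share their estimate of the spread.

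**Figure D1:**
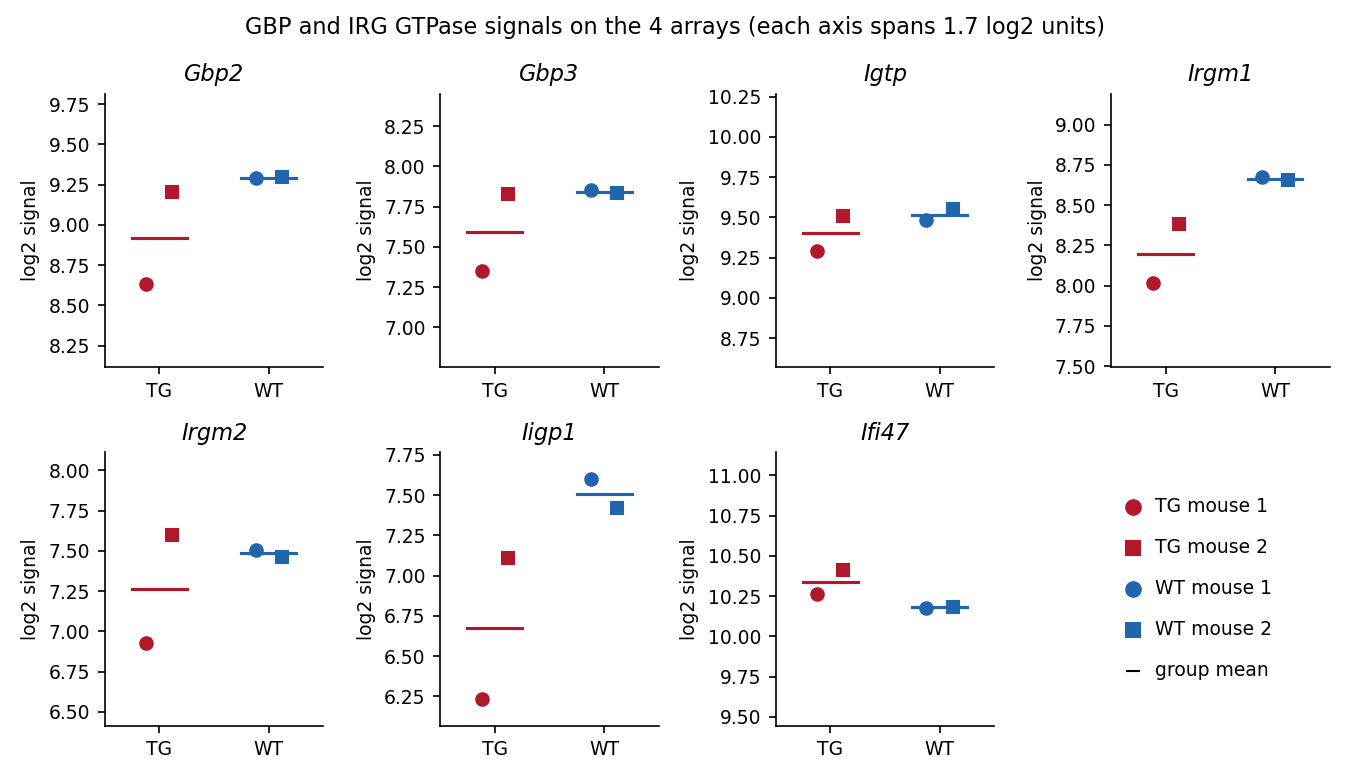
Log2 signal (y axis) of each of the 7 GTPase genes on the 4 arrays, with TG on the left and WT on the right of each panel. Circles are mouse 1, squares mouse 2 and lines group means. The WT points lie close together in every panel, and TG mouse 1 is the lowest array for every gene except Ifi47 in the values as deposited.

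Among the effectors of the IRG family, Iigp1, which coats parasite vacuoles, had the largest difference of the 7. On its brighter probe set (1419043_PM_a_at) it was at 6.24 and 7.11 on the TG arrays, against 7.60 and 7.42 on the WT arrays. Both TG arrays were below both WT arrays, and TG mouse 1 was the lowest. The difference was -0.84 (SE 0.31, 95% interval -1.64 to -0.03), a signal 1.79-fold lower in TG (limma adjusted p = 0.353), and 269th from the lowest among the 17097 genes. The other probe set (1419042_PM_at) was at 4.74 and 6.18 in TG and at 6.39 and 6.47 in WT, a difference of -0.97 (SE 0.48, limma adjusted p = 0.455). Both probe sets of the gene therefore gave the same order of groups without overlap. The distance of TG mouse 2 from the WT mean was smaller than that of TG mouse 1 on both, at -0.40 against -1.27 on the brighter one and -0.24 against -1.69 on the other.

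Ifi47, the other effector, took the opposite direction. It was at 10.27 and 10.42 on the TG arrays and at 10.18 and 10.19 on the WT arrays. Both TG arrays were above both WT arrays, which were 0.009 apart. The difference was 0.16 (SE 0.11, 95% interval -0.12 to 0.44, limma adjusted p = 0.556). It was the only one of the 7 that was above the WT mean on the array of TG mouse 1, where 67.4% of all genes lay below it.

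The 3 regulatory IRGs differed among themselves. Irgm1 was at 8.01 and 8.38 on the TG arrays, against 8.67 and 8.66 on the WT arrays. Both TG arrays were lower than both WT arrays. The difference was -0.47 (SE 0.15, 95% interval -0.87 to -0.06), a signal 1.38-fold lower in TG (limma adjusted p = 0.318). Irgm2 was at 6.93 and 7.60 in TG and at 7.51 and 7.46 in WT. TG mouse 1 was the lowest array and TG mouse 2 the highest, so the groups overlapped (difference -0.22, SE 0.24, 95% interval -0.85 to 0.41). Igtp was at 9.29 and 9.51 in TG and at 9.48 and 9.55 in WT. Here too the groups overlapped, with TG mouse 2 between the WT arrays (difference -0.12, SE 0.12, 95% interval -0.43 to 0.20). Igtp and Irgm2, whose promoter stretches were nearly identical, were at -0.23 and -0.56 from the WT mean on TG mouse 1, where the median of the genes above the filter on dim signals was -0.24, and at -0.005 and 0.12 on TG mouse 2. After quantile normalization, which removes such a shift of a whole array, they were at 0.057 and -0.17 on TG mouse 1. With Igtp this close to WT, whether the 2 genes shared a direction cannot be told.

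The 2 GBPs, which recognise bacterial surfaces and vacuole membranes, lay further from WT on TG mouse 1 than on TG mouse 2. Iigp1, Irgm1, Irgm2 and Igtp did so too. Gbp2 on its brighter probe set (1435906_PM_x_at) was at 8.64 and 9.20 on the TG arrays and at 9.29 and 9.30 on the WT arrays. The groups did not overlap, and TG mouse 2 lay 0.09 below the WT mean (difference -0.37, SE 0.21, 95% interval -0.92 to 0.17, limma adjusted p = 0.493). The suffix of this probe set marks probes that may also bind related transcripts. The other probe set of Gbp2 (1418240_PM_at) was at 8.20 and 8.36 in TG and at 8.49 and 8.57 in WT, a difference of -0.25 (SE 0.11, limma adjusted p = 0.426), and again did not overlap. Gbp3 was at 7.35 and 7.83 in TG and at 7.85 and 7.83 in WT. Its groups were separated only by 0.005, the gap between TG mouse 2 and the lower WT array (difference -0.25, SE 0.18, 95% interval -0.73 to 0.23, limma adjusted p = 0.583).

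The second question was how far the 7 differed alike on each TG array. On the array of TG mouse 1, 6 of 7 lay below the WT mean, as did 67.4% of all genes, with a median of -0.56, while the median over all 17097 genes was -0.14 and over the 12024 genes above the filter on dim signals (4.10) -0.24. On the array of TG mouse 2, 5 of 7 lay below it, as did 46.9% of all genes, with a median of -0.014, and the medians over the same sets were 0.012 and 0.008. The median difference over both arrays was -0.25 for the 7 GTPases and -0.053 for all genes, and after quantile normalization -0.07 for the 7 and 0.02 for all genes. The 7 differences ran from -0.84 to 0.16. The B cell markers were lower on both TG arrays, with medians of -1.06 on TG mouse 1 and -0.84 on TG mouse 2, and their part in the values of the GTPases was not tested.

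The measured relatives of these genes covered a similar range. Of 5 other GBP genes 2 were lower and 1 was higher in TG without overlap (all genes: 31.4% and 17.7%). Of 3 other IRG genes 2 were lower. None of the 8 passed over all probe sets. Gbp10 was at 7.56 and 7.94 in TG and at 8.26 and 8.36 in WT (difference -0.56, SE 0.16, limma adjusted p = 0.277), and its other probe set differed by -0.76. Gbp8 was at 8.13 and 8.39 in TG and at 7.82 and 7.86 in WT, higher on both TG arrays (difference 0.42, SE 0.13, limma adjusted p = 0.292). Gbp7 differed by -0.33, with 8.38 on TG mouse 1 and 8.93 on TG mouse 2, against 9.01 and 8.96 in WT. Gbp2b (difference 0.11) and Gbp4 (-0.36) overlapped between the groups. Tgtp1, an interferon-inducible IRG of T cells and macrophages, was at 10.32 and 10.53 in TG and at 10.44 and 10.50 in WT. Irgq, a distant relative, differed by -0.56 (SE 0.11, limma adjusted p = 0.194) but its dimmer probe set by 0.03, and Irgc1, a testis gene in mice, by -0.23. Of the 4 relatives with a promoter window, Gbp2b, Gbp7 and Tgtp1 held an ISRE match and Irgq did not. Gbp7 and Tgtp1 held a GAS match as well, so 2 of the 4 held both motifs, as did Igtp and Irgm2 and 0.454% of all windows. Among the genes of both families, Ifi47 and Gbp8 were higher on both TG arrays than on both WT arrays. Iigp1, Irgm1 and Gbp10 were among those lower on both. None of these passed the threshold, and whether the families shared a direction was not tested.

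**Figure D2:**
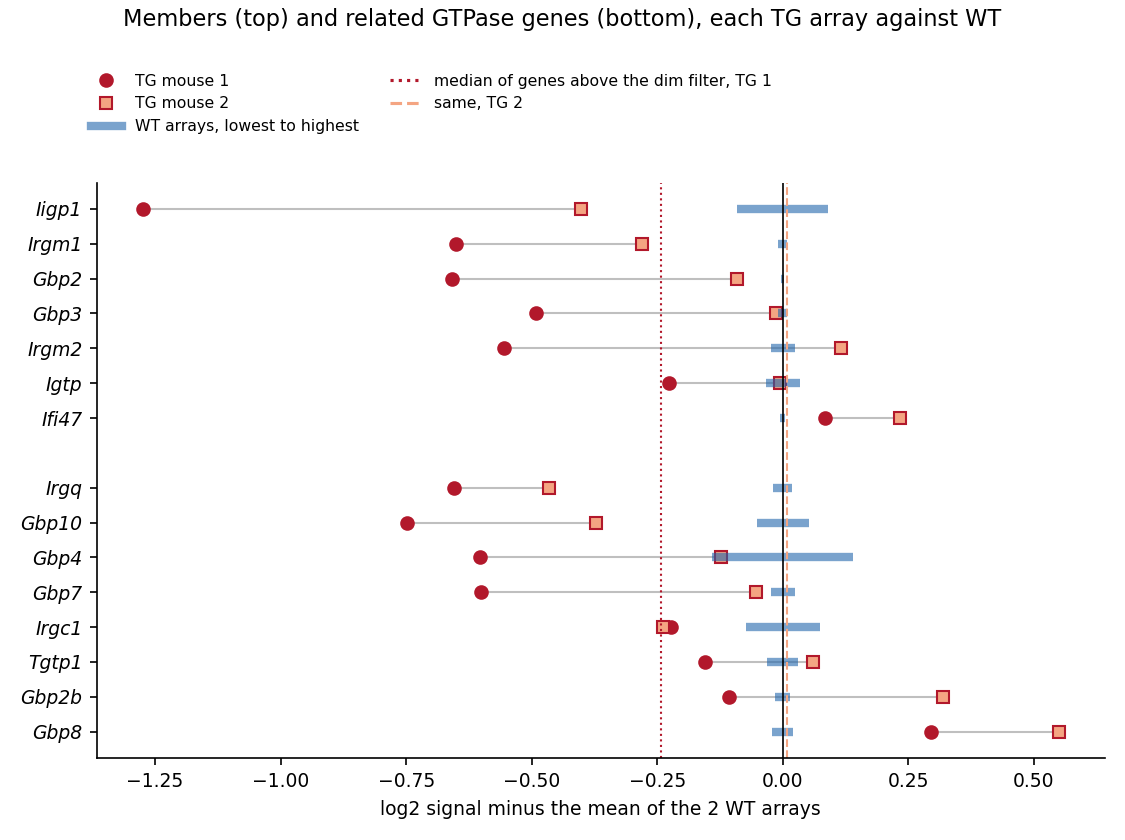
Log2 signal of each TG array minus the mean of the 2 WT arrays (x axis) for the 7 GTPase genes (top) and 8 related genes (bottom). Circles are TG mouse 1, squares TG mouse 2, blue bars span the WT arrays, and the dotted and dashed lines are the medians of the 12024 genes above the filter on dim signals for TG mouse 1 (-0.24) and TG mouse 2 (0.008). Iigp1, Irgm1, Gbp2, Gbp3, Irgq, Gbp10, Gbp7 and Irgc1 lie left of the WT bar on both arrays, Gbp2, Gbp3 and Gbp7 by under 0.1 on TG mouse 2, and Ifi47 and Gbp8 lie right of it on both.

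The genes that induce the GTPases were examined next. Among 12 measured genes of interferon-gamma signalling, 3 were lower and 3 higher in TG without overlap, and 6 overlapped. Of all 17097 genes 31.4% were lower and 17.7% higher without overlap. None of the 12 passed over all probe sets, and their median difference was -0.048. The sign of that median changed with the processing: it was 0.109 after quantile normalization, 0.133 without TG mouse 1 and -0.277 without TG mouse 2. Ifngr1, the ligand-binding receptor chain, was at 8.84 and 8.97 in TG and at 8.45 and 8.47 in WT (difference 0.45, SE 0.10, limma adjusted p = 0.221). Irf1, which binds ISREs of GBP and IRG promoters, was at 9.10 and 9.47 in TG and at 9.71 and 9.79 in WT (difference -0.46, SE 0.15, limma adjusted p = 0.321). Irf8, a partner of Irf1 that B cells express strongly, differed by -1.32 (limma adjusted p = 0.0796), and Pias1, an inhibitor of STAT signalling, by -0.51. Ifng itself, named after its values were seen, was at 5.73 and 6.36 in TG and at 5.98 and 6.03 in WT, with overlap between the groups. Ifngr1 and Irf1 therefore differed in opposite directions, neither past the threshold. The other receptor chain, Ifngr2, named after its values were seen, overlapped between the groups (difference -0.098).

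Other genes induced by interferon-gamma were lower in TG without overlap in 8 of 15 and higher in 1 (all genes: 31.4% and 17.7%). Their median was -0.32 (-0.199 after quantile normalization), and none passed over all probe sets. On TG mouse 2 their median distance from the WT mean was -0.046. Cxcl9, a chemokine known as a marker of interferon-gamma exposure, was at 4.98 and 5.73 in TG and at 6.18 and 6.16 in WT (difference -0.81, SE 0.26, limma adjusted p = 0.312). Cxcl10 of the same list, named after its values were seen, overlapped between the groups (difference 0.14). Wars, the tryptophanyl-tRNA synthetase, differed by -0.72, and Tapbp, the peptide-loading protein tapasin, by -0.48. Ciita, the class II transactivator, which B cells also express without interferon, was at 7.14 and 7.69 in TG and at 8.79 and 8.84 in WT (difference -1.40, SE 0.20, limma adjusted p = 0.137).

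None of the measured type I interferon genes passed over all probe sets. Of 21 antiviral response genes 16 were lower and none was higher without overlap (all genes: 31.4% and 17.7%), and 5 overlapped between the groups. Their median distance from WT was -0.72 on TG mouse 1 and -0.40 on TG mouse 2. One of the 16, Eif2ak2, named after its values were seen, averaged below the brightest non-specific control probe set. The median difference of the 21 was -0.552 as deposited, -0.329 after quantile normalization and 0.38 after centring on the B cell markers, where the median over all genes was 0.88. Ifit3, an antiviral RNA-binding partner protein, was at 6.22 and 6.82 in TG and at 7.69 and 7.84 in WT (difference -1.25, SE 0.22, limma adjusted p = 0.168). Ifit1 and Ifit2, named after their values were seen, overlapped between the groups (differences -0.105 and -0.086). Mx1, itself an interferon-inducible dynamin-like GTPase, was at 5.27 and 5.78 in TG and at 6.84 and 6.66 in WT (difference -1.22, SE 0.20, limma adjusted p = 0.149). Oas2, an oligoadenylate synthetase that senses double-stranded RNA, was at 6.02 and 6.14 in TG and at 7.03 and 6.97 in WT. Oasl1, a related protein, was at 5.86 and 6.09 in TG and at 6.92 and 6.82 in WT. Of 8 signalling genes 6 were lower without overlap, as were 31.4% of all genes, and 2 overlapped. Their median difference was -0.332 as deposited and -0.139 after quantile normalization. Among the 6 were Stat2 at 5.15 and 5.46 in TG and 5.85 and 6.04 in WT, and Irf9, its partner in the complex that binds ISREs, at 8.20 and 8.31 in TG and 8.55 and 8.61 in WT. Irf7 was at 7.46 and 7.70 in TG and at 8.68 and 8.64 in WT, and Usp18, a brake on the receptor, differed by -0.59. On TG mouse 2 the medians of the antiviral genes (-0.40) and of the signalling genes (-0.20) were further below WT than that of the 7 GTPases (-0.014), a difference between lists that was not tested.

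**Figure D3:**
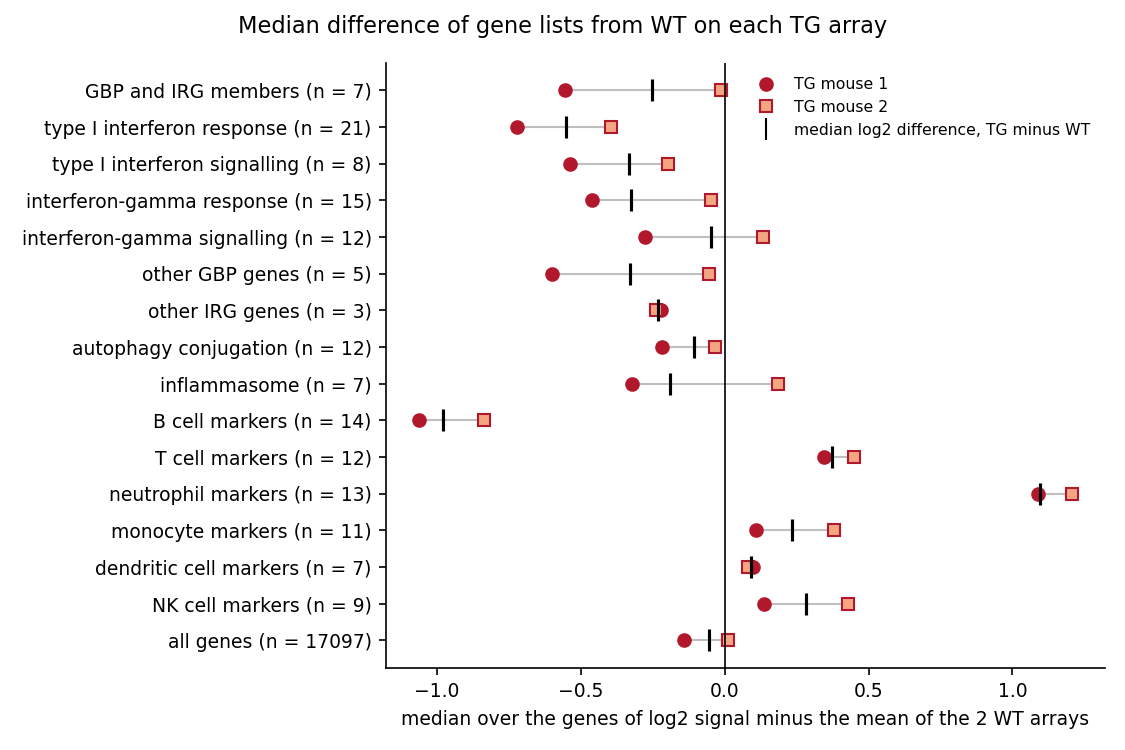
Median over the genes of each list of the log2 signal minus the mean of the 2 WT arrays (x axis), for TG mouse 1 (circles) and TG mouse 2 (squares), with the median of the TG minus WT differences as a black tick. The GTPases lie at -0.56 and -0.014, the type I interferon response at -0.72 and -0.40, the B cell markers at -1.06 and -0.84 and all genes at -0.14 and 0.012.

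The values depended on which TG array was used and on the scaling between arrays. Without TG mouse 2, 5 of the 7 GTPases passed as lower (limma adjusted p from 0.00204 for Iigp1 to 0.00679 for Gbp3), but 42.4% of all probe sets passed in that fit, whose spread comes from the 2 WT arrays alone. Without TG mouse 1 the spread again comes from the 2 WT arrays alone. Iigp1 was then at -0.40, Irgm1 at -0.28 and Ifi47 at 0.23, and Irgm2 turned to 0.12. After quantile normalization, which gave 1.93% of probe sets past the threshold, none of the 7 passed. Iigp1, Irgm1 and Gbp2 stayed below WT without overlap at -0.62, -0.30 and -0.23 and Ifi47 above it at 0.30, while Gbp3 overlapped at -0.07 and Igtp turned to 0.022. Set against the mean of the 14 B cell markers on the same array, the mean of the 7 GTPases was at -0.72 and -0.43 on the TG arrays and at -1.18 and -1.24 on the WT arrays. On that scale 6 of the 7 passed as higher in TG, as did 93.9% of all probe sets in either direction, and Iigp1 did not (0.094, limma adjusted p = 0.693). The median over all genes was then 0.88 and that of the 7 was 0.68.

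**Figure D4:**
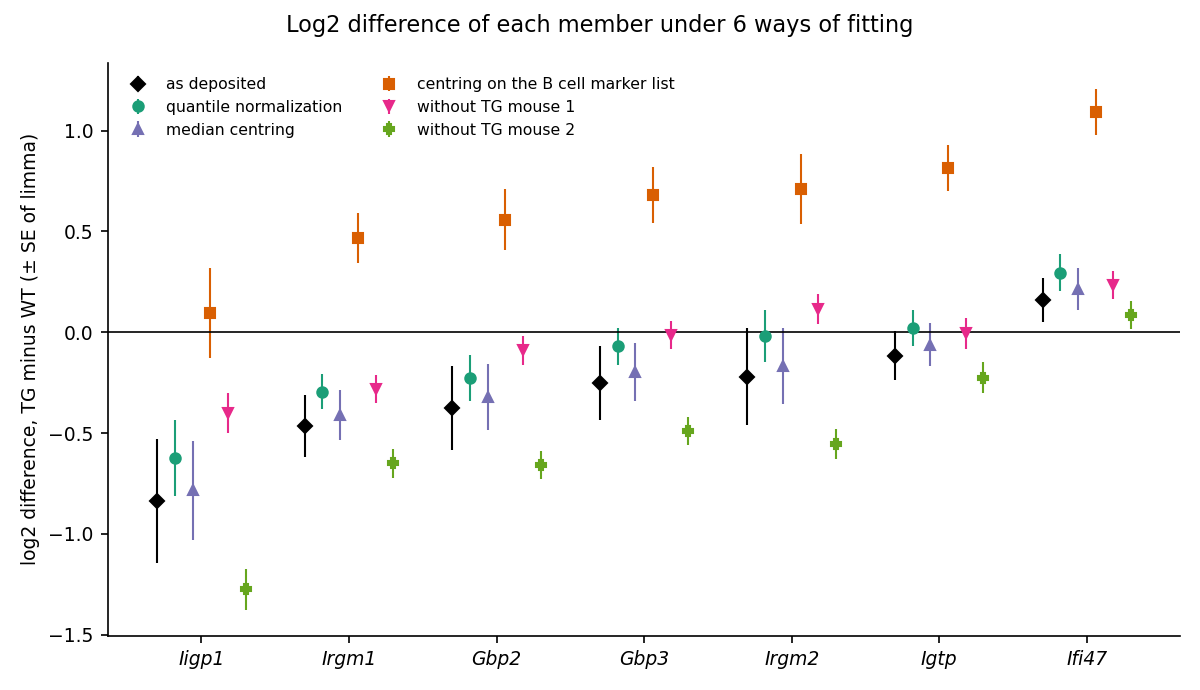
Log2 difference, TG minus WT, of each of the 7 genes (y axis, error bars SE of limma) as deposited and under 5 alternatives. All 7 lie above 0 when arrays are centred on the B cell markers. In the other 5 fits Iigp1, Irgm1, Gbp2 and Gbp3 lie below 0, Gbp3 at -0.014 without TG mouse 1, and Ifi47 lies above 0.

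The genes nearest to the average of the 7 across the 4 arrays, each centred on its own mean, were Ppp1r21, Mroh1, Pfdn6, Plaur and Itga2b, out of 17090 ranked. Their Euclidean distances were 0.0154 to 0.0205 log2 units. Ppp1r21 was at 8.03 and 8.52 in TG and at 8.57 and 8.56 in WT, a low value on TG mouse 1 and a value near WT on TG mouse 2. With 4 arrays such a likeness is a description of the one low array.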

How the data were processed

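The deposited values were log2 signals made by the authors, 1 per probe set and array, between 2.01 and 13.03. That the scale is log2 follows from the range of the values, and background correction, normalization and summary are not given in the sources used here. RNA was labelled from the 3′ end, per the labels' protocols. The 104 control probe sets were left out. Gene symbols came from the platform annotation. TG and WT, grouped by title, were fitted with limma 3.58.1 (lmFit and eBayes; R 4.3.3), with two-sided p-values adjusted by Benjamini-Hochberg over 45037 probe sets, a threshold of 0.05 and 2 residual and 2.69 prior degrees of freedom, after a check on simulated data. Mice numbered alike did not deviate together (correlation 0.0145), so no replicate block was used. Detection calls were not used here, and 11 non-specific controls averaged 2.83 to 2.95. The number of arrays limits precision. Named genes were all 7 members, all measured GBP and IRG relatives, at most 4 genes per other pathway list by smallest p, and the 5 nearest profiles. The members and the 8 pathway and 6 marker lists were chosen with earlier results of these data known. Alternatives were other scalings, a filter on dim probe sets (the lowest 40% by mean), eBayes with trend and robust, the replicate block, means over probe sets, a threshold of 0.1 and leaving out each array. Promoters were aligned with Biopython 1.88, and figures were drawn with matplotlib 3.10.9.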

Additional observations from a re-analysis of the deposited data

How the results depend on the processing

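The number of probe sets past the threshold was 21 as deposited, 870 after quantile normalization, 614 after median centring, 42291 after centring on the B cell markers, 51 with the filter on dim probe sets, 139 at an adjusted p of 0.1, and 0 to 19110 with 1 array left out; without WT mouse 1 or WT mouse 2 it was 0 (1631 and 1576 at an unadjusted p under 0.05). Of the 7 GTPases 0 passed as deposited, 6 after centring on the B cell markers, and 0 to 5 with 1 array left out, the 5 without TG mouse 2. Their median difference was -0.252 as deposited, -0.07 after quantile normalization, -0.199 after median centring, 0.68 after centring on the B cell markers, and -0.555 to -0.014 with 1 array left out. Centring on the B cell markers, whose mean was lower on the TG arrays, turned the sign of Gbp2 (0.558), Gbp3 (0.68), Igtp (0.816), Irgm1 (0.466), Irgm2 (0.712) and Iigp1 (0.094). Quantile normalization turned Igtp (0.022) and leaving out TG mouse 1 turned Irgm2 (0.116). The cause was not tested. With the replicate block 15 probe sets and 0 GTPases passed and the median was -0.252. Where 1 array is left, it is assumed to vary like the other group.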

Other observations

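GBP and IRG proteins are placed on vacuoles with the help of the autophagy conjugation system. The list examined held genes of that system and other autophagy and ubiquitin-like genes. Of its 12 measured genes 6 were lower and 1 was higher in TG without overlap (all genes: 31.4% and 17.7%). Their median difference was -0.11, and none passed over all probe sets. Gabarap, one of the small ubiquitin-like proteins that the conjugation system attaches to membranes, was at 9.99 and 10.28 in TG and at 10.49 and 10.60 in WT (difference -0.41, SE 0.14, limma adjusted p = 0.332). Map1lc3a, of the same family, differed by -0.38, Ube2l6, an interferon-inducible conjugating enzyme, by -0.43, and Tax1bp1, an autophagy receptor, by -0.19. After quantile normalization the median of this list was 0.081.

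Inflammasome genes act with GBPs against bacteria in the cytosol. Of 7 measured, 3 were lower and 2 higher in TG without overlap, where 31.4% of all genes were lower and 17.7% higher. None of the 7 passed over all probe sets. Il1b, the cytokine released by inflammasomes, was at 6.87 and 7.18 in TG and at 5.95 and 6.03 in WT (difference 1.04, SE 0.14, limma adjusted p = 0.129), on arrays where the neutrophil markers were higher too, with 12 of 13 above WT without overlap. Casp4, the caspase that senses bacterial lipopolysaccharide, differed by -0.29, Pycard, the inflammasome adaptor, by -0.26, and Casp8 by 0.15. Whether these values come from B cells or from other cells in the samples was not tested.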
